A study of Mus musculus with 32 samples.

Results

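The Hox cluster genes encode homeodomain transcription factors that stand side by side in 4 clusters, HoxA to HoxD. Every gene whose symbol is Hox followed by a cluster letter and a number was taken. This gave 38 genes, 10 in HoxA, 10 in HoxB, 9 in HoxC and 9 in HoxD. Of these, 36 were among the 19613 genes that have a probe of exactly 1 name on either array platform. The RNA of the Hox genes was followed in E14TG2a, a mouse embryonic stem (ES) cell line, in 2 experiments. In the RNA interference (RNAi) experiment, cells carried a pSUPER-puro plasmid against Pou5f1 (4 arrays) or against Nanog (5 arrays), or the empty pSUPER-puro vector (5 arrays), and were selected in puromycin at 1 µg/ml from 24 h for 3 days; the control is an empty vector, and no plasmid against an unrelated target was among the samples. In the treatment experiment, cells were given retinoic acid (RA, 0.1 µM), dimethyl sulphoxide (DMSO, 1%) or hexamethylene bisacetamide (HMBA, 3 mM) for 2, 4 or 6 days, and each treated sample was set on a 2-colour array against untreated E14 cells. Each treatment and day had 2 such arrays, 1 with the treated RNA in Cy3 and 1 with it in Cy5. The labels name no separate cultures for the arrays of a group, so p-values measure the spread between these arrays, which may be technical, and in bulk RNA fewer cells of a type and less RNA per cell cannot be told apart.

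Hox proteins give cells of the embryo their position along the head to tail axis. Genes of 1 number in different clusters are paralogues, and low numbers, at the 3′ end of a cluster, are switched on earlier and further to the front of the body than high numbers. In ES cells the clusters carry the polycomb mark and are largely silent, and retinoic acid, through receptor dimers that bind repeats of a 6-base element, is a classical inducer of the 3′ genes. Hox proteins bind DNA with partners of the TALE class (Pbx, Meis and Pknox), and Cdx proteins are known to activate central Hox genes.

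The start regions of 5 genes are shown, picked by the ratios of these genes in RA. Hoxa5 and Hoxa6 are neighbours whose ratios went opposite ways in RA, and Hoxd3 and Hoxd4 are another such pair. Hoxc4 had the highest ratios of the family. RefSeq promoter sequences of build GRCm38.p6 covered 24 starts of 22 Hox genes (250 bases before to 50 after each start), and the 250 bases before the start are given 5′ to 3′ in the direction of the gene, with AGGTCA, the retinoid receptor element on its own, in capitals on either strand. The windows are chr6:52204588-52204837 on the minus strand for Hoxa5, chr6:52208673-52208922 on the minus strand for Hoxa6, chr15:103034145-103034394 on the plus strand for Hoxc4, chr2:74711743-74711992 on the plus strand for Hoxd3 and chr2:74721728-74721977 on the plus strand for Hoxd4.
Hoxa5: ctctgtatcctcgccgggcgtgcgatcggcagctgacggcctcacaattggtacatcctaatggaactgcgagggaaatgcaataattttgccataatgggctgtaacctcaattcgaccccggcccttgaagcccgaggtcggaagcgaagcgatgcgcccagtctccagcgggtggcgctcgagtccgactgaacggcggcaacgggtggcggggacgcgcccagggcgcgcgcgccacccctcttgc
Hoxa6: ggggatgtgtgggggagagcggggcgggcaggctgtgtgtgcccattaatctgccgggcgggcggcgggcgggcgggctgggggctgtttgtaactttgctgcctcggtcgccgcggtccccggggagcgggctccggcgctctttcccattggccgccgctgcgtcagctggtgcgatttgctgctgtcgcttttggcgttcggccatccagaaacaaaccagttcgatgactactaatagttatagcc
Hoxc4: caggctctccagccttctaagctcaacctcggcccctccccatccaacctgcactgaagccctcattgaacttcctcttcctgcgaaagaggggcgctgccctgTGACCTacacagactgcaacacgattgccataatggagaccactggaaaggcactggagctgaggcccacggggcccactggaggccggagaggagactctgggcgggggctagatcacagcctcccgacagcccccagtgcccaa
Hoxd3: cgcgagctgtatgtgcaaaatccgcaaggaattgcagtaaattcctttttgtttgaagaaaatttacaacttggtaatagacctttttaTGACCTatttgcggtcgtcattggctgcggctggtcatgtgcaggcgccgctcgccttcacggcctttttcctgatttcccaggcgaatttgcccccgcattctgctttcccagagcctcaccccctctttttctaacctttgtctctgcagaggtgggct
Hoxd4: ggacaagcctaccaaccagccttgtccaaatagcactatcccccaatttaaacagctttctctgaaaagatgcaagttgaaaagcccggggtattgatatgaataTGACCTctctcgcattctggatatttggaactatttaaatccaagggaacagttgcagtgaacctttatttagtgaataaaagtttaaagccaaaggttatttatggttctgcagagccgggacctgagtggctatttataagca

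AGGTCA on either strand was in 7 of the 24 Hox windows (29.2%), those of Hoxa5, Hoxb4, Hoxc4, Hoxd3, Hoxd4, Hoxd8 and Hoxd10, against 16.3% of all 32851 promoter windows; that of Hoxa5 lies outside the bases printed. Hoxd3, with lower ratios in RA, and Hoxd4 and Hoxc4, with higher ratios, each held 1, and Hoxa6 held none. Hoxb5, Hoxb7 and Hoxc5, also higher in RA, had no window, and a link between sequence and ratio was not tested. No Hox window held a direct repeat of retinoid elements (AGGTCA or its variants with the letters AGTTCA, with GGTTCA, or with GGGTCA) with 5 or 2 bases between, which 0.0974% and 0.268% of all windows hold. TGATNNAT, a site of Hox and Pbx dimers, was in 4 Hox windows (16.7%), those of Hoxa2, Hoxb1, Hoxb8 and Hoxd11, against 8.85% of all windows. The Hox windows were rich in CpG, with a median of 14.5 CpG against 7.0 in all windows, and ranged from 4 (Hoxa9, Hoxd4 and the upstream start of Hoxd11) to 45 (Hoxa13).

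Not every gene could be read on both platforms. On the RNAi arrays 33 of the 38 genes had a probe set of their own, and Hoxd4 and Hoxb8 shared theirs with Hoxd3 and Hoxb7. On the 2-colour arrays 32 genes had a probe, 21 of these had a value in each of the 9 treatment and day groups and were tested, and 11 were too sparse (Hoxa4, Hoxa7, Hoxa10, Hoxa13, Hoxb3, Hoxc4, Hoxc12, Hoxd1, Hoxd8, Hoxd9 and Hoxd13). Both platforms tested 19 of the genes, and Hoxb8 and Hoxc11 had no probe of their own on either. Per array, 11257 to 20019 of 21106 probes had a ratio, with the fewest on the DMSO day 4 array with treated cells in Cy5, where Hoxa3, Hoxa6, Hoxb7, Hoxc9 and Hoxd12 had none, so their DMSO values rest on the other 5 arrays. Arrays of opposite dye orientation correlated at -0.01 to 0.66 within a treatment and day, and the means of the 2 orientations had the same sign at 48.0% to 55.5% of probes, so the orientation is given with the single ratios below, while ranges take in both. RNAi arrays of 1 group correlated at 0.990 to 0.997. The plasmids lowered their targets: Pou5f1 levels were 8.73 to 9.21 (log2) in Pou5f1 RNAi, against 11.18 to 11.51 in Nanog RNAi and 11.31 to 11.51 in vector, and Nanog levels were 9.57 to 9.82 in Pou5f1 RNAi and 9.14 to 9.47 in Nanog RNAi, against 11.00 to 11.19 in vector.

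In retinoic acid, 6 of 21 tested Hox genes had higher RNA than in untreated cells over the 3 days and 2 had lower RNA, and all 8 lie in the 3′ to central part of the clusters. Hoxc5, Hoxa5, Hoxb5, Hoxb7, Hoxd4 and Hoxa3 rose by 0.46 to 1.53 on the log2 scale, and Hoxd3 and Hoxa6 fell by 0.82 and 0.68. By paralogue number, 3 of 5 genes of groups 1 to 4 were called (2 higher, 1 lower), 5 of 6 of groups 5 to 8 (4 higher, 1 lower) and 0 of 10 of groups 9 to 13. The call is an adjusted p under 0.05 in limma's test of the mean of the 3 days, fitted over all 16657 probes, of which 25.1% were called in RA, 14.6% higher and 10.5% lower. The median change of the 21 genes was 0.22, against -0.02 over all probes. The 8 called genes were also the ones whose 6 RA arrays all lay on 1 side of 0 (6 above, 2 below), as did 12.3% of all probes above and 10.8% below. Across the 21 genes the change and the paralogue number had a Spearman's rho of -0.32 on day 2 of RA, -0.0026 on day 6 and -0.21 for the mean of days, against 0.23 in DMSO and 0.31 in HMBA. Over the 33 genes of the RNAi arrays rho was 0.04 in Pou5f1 RNAi and 0.34 in Nanog RNAi. These describe genes that share the same arrays, and their sign was not the same in all comparisons.

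**Figure D1:**
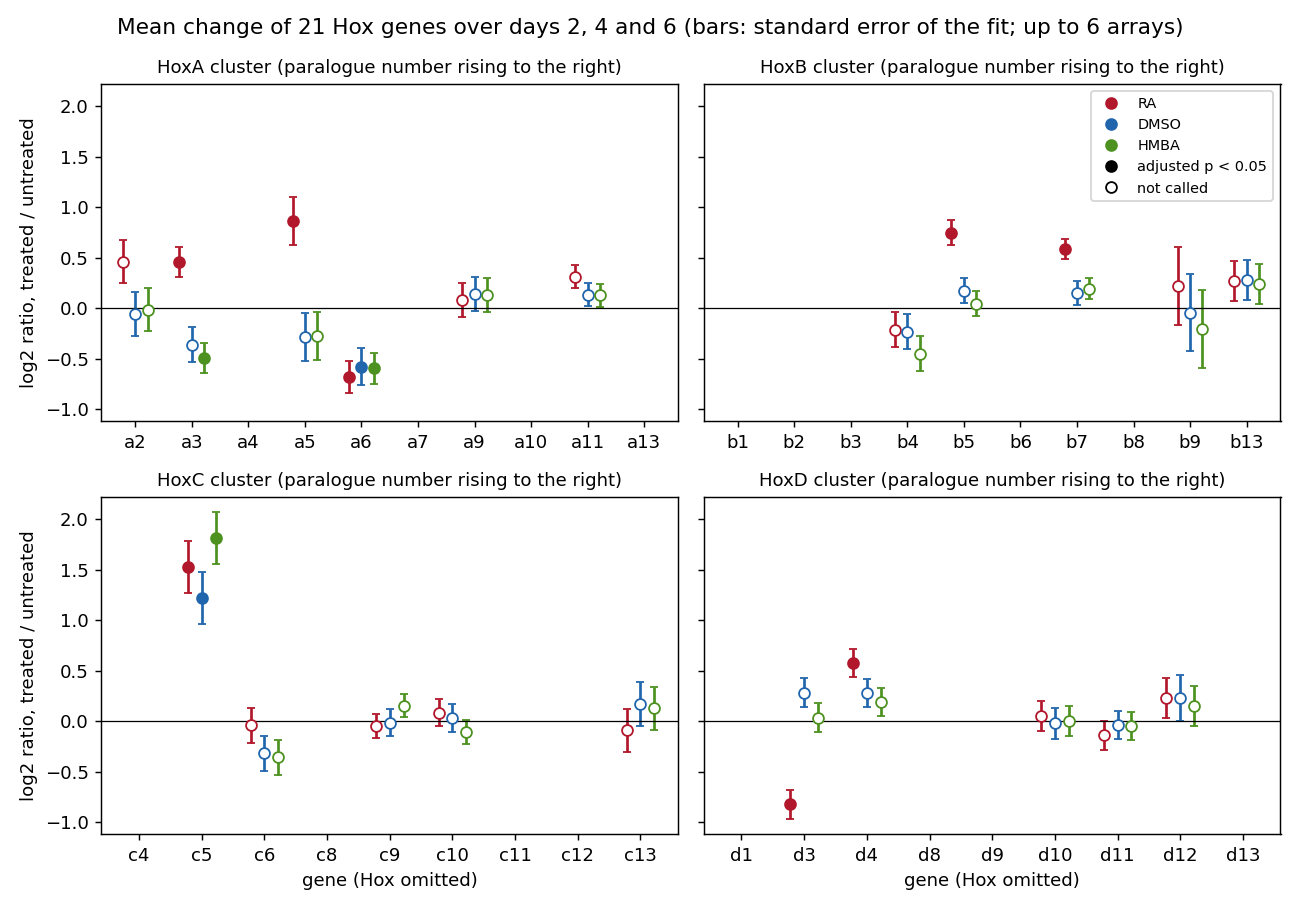
Mean log2 ratio of treated over untreated cells for each of the 21 tested Hox genes in RA, DMSO and HMBA, by cluster and paralogue number, with the standard error of the fit; filled points have an adjusted p under 0.05. Filled points lie at paralogue numbers 3 to 7 in every cluster, those of RA above 0 except Hoxa6 and Hoxd3, and Hoxc5 is above 0 in all 3 treatments.

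Group 5, whose members pattern the neck and upper trunk, had 3 genes higher in RA. Hoxb5, which in the mouse sets the level of the shoulder, had ratios of 1.36 and 1.68 on day 2, 0.76 and 0.25 on day 4 and 0.26 and 0.16 on day 6, the array with treated cells in Cy3 first in each pair. Day 2 was the high day on both orientations, and all 6 arrays lay above 0. Its mean change was 0.75 ± 0.13 (SE, adjusted p = 0.00075). Hoxa5, needed for lung and neck development, had ratios of 1.84 and 0.57, 0.86 and 0.20, and 1.24 and 0.47 on days 2, 4 and 6, in the same order. Every Cy3 array was above its Cy5 partner, and the mean of 0.86 ± 0.24 (adjusted p = 0.017) lost its call without any 1 of the 3 Cy3 arrays, at changes of 0.65 to 0.75. For Hoxc5 the ratios were 0.74 and 2.02, 1.19 and 2.25, and 0.72 and 2.24, with the Cy5 array the higher of each pair. The Hoxc5 mean of 1.53 ± 0.26 (adjusted p = 0.00081) was the highest of the tested genes in RA.

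The other 3 higher genes are of groups 3, 4 and 7. Hoxb7, a gene of the thoracic region, had ratios of 0.52 and 1.08 on day 2, 0.88 and 0.70 on day 4 and 0.01 and 0.33 on day 6, and averaged 0.59 ± 0.10 (adjusted p = 0.0011). Its day 6 arrays were the lowest in both orientations. Hoxd4, active in the posterior hindbrain, where a retinoid response element drives it, had 0.27 and 0.85, 0.87 and 0.62, and 0.36 and 0.49, a mean of 0.58 ± 0.14 (adjusted p = 0.0089). Hoxa3, needed for the thymus and parathyroid, had 1.34 and 0.21, 0.10 and 0.24, and 0.71 and 0.17. The first of these, the day 2 Cy3 array, stood above the other 5, and the mean of 0.46 ± 0.15 (adjusted p = 0.041) was 0.27 (adjusted p = 0.18) without it and also lost its call without either day 4 array or the day 6 Cy3 array. RefSeq places Hoxa4, Hoxa5 and Hoxa6 inside the span of Hoxa3, and Hoxd4 inside that of Hoxd3.

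Each of the 2 lower genes sits next to a higher one. Hoxd3, which shapes the first neck vertebra, had ratios of -0.56 and -1.06 on day 2, -0.45 and -0.75 on day 4 and -0.60 and -1.52 on day 6. All 6 lay below 0 and the Cy5 array was lower in each pair, and the mean was -0.82 ± 0.14 (adjusted p = 0.00094). The accession of the Hoxd3 probe is annotated to both Hoxd3 and Hoxd4 on the RNAi platform, so which of the transcripts it reads is uncertain, while the Hoxd4 probe gave ratios of the opposite sign. Hoxa6, a thoracic gene between Hoxa5 and Hoxa7, had -0.92 and -0.37, -0.81 and -0.35, and -1.01 and -0.62, a mean of -0.68 ± 0.16 (adjusted p = 0.0077). Its Cy3 array was the lower of each pair, the reverse of Hoxd3.

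**Figure D2:**
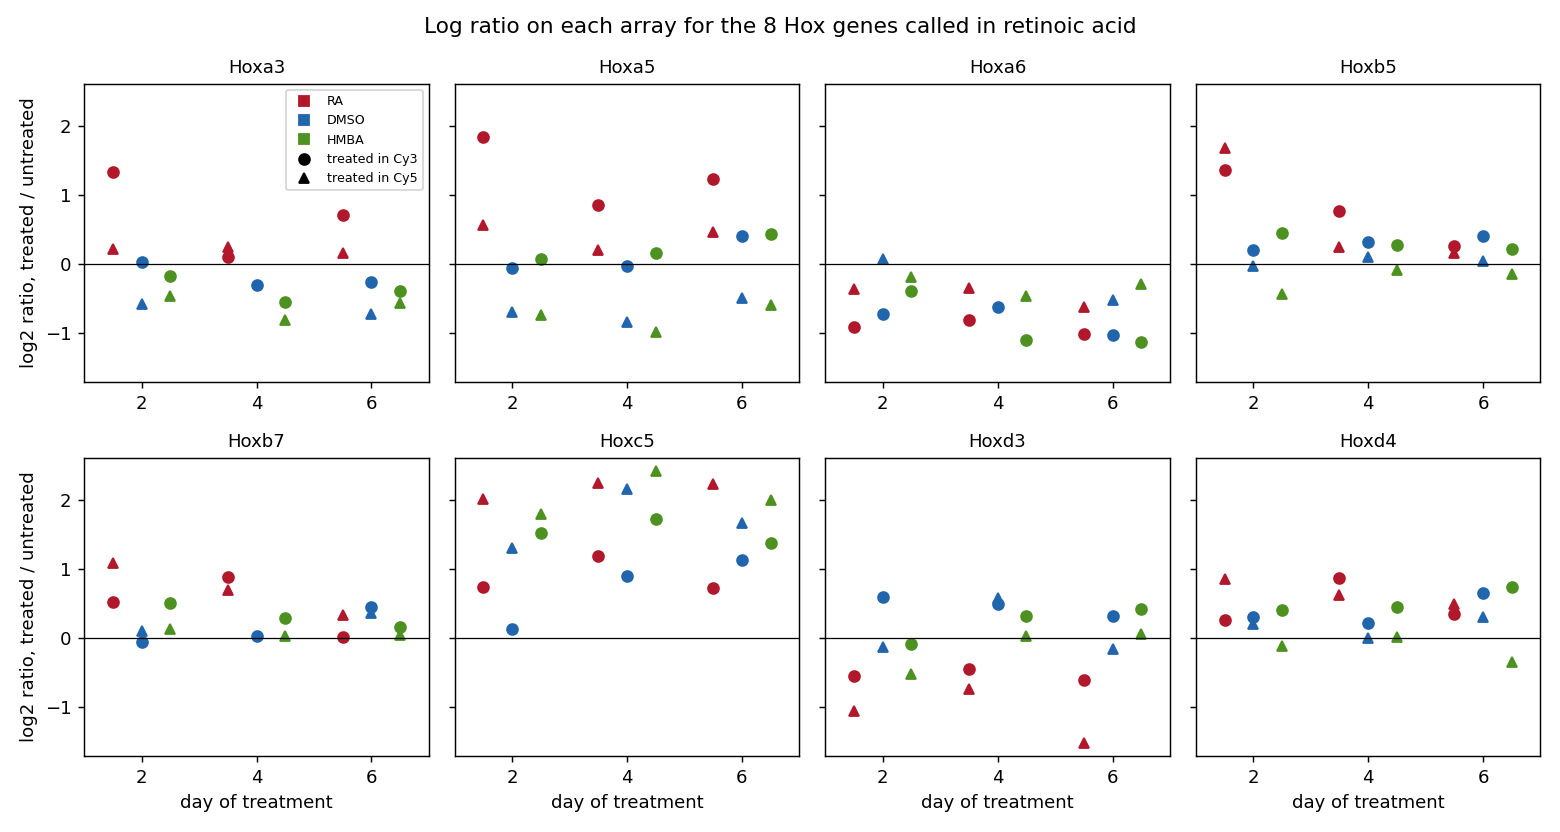
Log2 ratio of treated over untreated cells on each array for the 8 Hox genes called in RA, by day; circles are arrays with treated cells in Cy3 and triangles those with treated cells in Cy5. Hoxb5 is highest on day 2 of RA (1.36 and 1.68), Hoxd3 lies below 0 on all 6 RA arrays, and the 2 orientations are apart by over 1 for Hoxc5 in RA.

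The 13 tested genes that were not called in RA had means from -0.21 (Hoxb4) to 0.46 (Hoxa2). Hoxa2, which specifies the second pharyngeal arch, read 0.88 and 0.91 on day 2, 1.02 and -0.02 on day 4 and 0.40 and -0.44 on day 6, so its day 2 arrays were above 0 and its later Cy5 arrays were not. Hoxa11, a gene of the forearm and uterus, had the next mean, 0.31 ± 0.11 (adjusted p = 0.064), with 1.02 on the day 2 Cy5 array and -0.06 to 0.43 on the other 5. Among the 5′ genes Hoxb9, Hoxb13, Hoxc13 and Hoxd12 had ratios whose sign followed the dye more than the day. Hoxb9, for example, read 0.98, 0.84 and 1.27 on the RA arrays with treated cells in Cy3 and -0.81, -0.37 and -0.60 on those in Cy5. Hoxc13 ran the other way, at -0.57, -0.42 and -0.53 in Cy3 and 0.47, 0.28 and 0.24 in Cy5.

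Since same-numbered ratio arrays share an orientation and deviate together, the fit was also made with the orientation as a replicate block, which left the changes of fully measured genes as they were and made the errors smaller. With this replicate block 12 of 21 Hox genes were called in RA, 10 higher and 2 lower, when 49.3% of probes were. The added genes were Hoxa2 (0.46, adjusted p = 0.00072), Hoxa11 (0.31, adjusted p = 0.013), Hoxb13 (0.27, adjusted p = 0.0053) and Hoxd12 (0.23, adjusted p = 0.027). All 4 were higher in RA, and 3 of them are 5′ genes.

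The highest Hox ratios were those of a gene outside the test. Hoxc4, a group 4 gene next to Hoxc5, had a value on 4 RA arrays, 3.45 and 2.71 on day 2, 2.69 on day 4 and 4.02 on day 6 (the last 2 with treated cells in Cy3), and on 2 DMSO arrays, at 0.04 on day 4 and 1.19 on day 6, both in Cy3. No HMBA array had a Hoxc4 value. Every RA value lay above both DMSO values. Only day 2 of RA has both arrays, and the gene was read mostly where it was high, so no test is given for it or for the other sparse genes. Hoxa4 had 1.90 and 1.37 on RA day 2 (Cy3 first) and 0.63 on the day 4 Cy3 array, against 0.10 on the DMSO day 6 Cy3 array and -0.31 and -0.12 on the HMBA Cy3 arrays of days 2 and 4. Hoxb3, a hindbrain gene, had a single RA value, 2.25 on the day 2 Cy3 array, against -0.30 to 0.47 on 4 DMSO and 4 HMBA arrays. Hoxd1 read 1.03 on day 2 and 0.85 on day 6 of RA, both in Cy3, against -0.04 to 0.41 on 4 DMSO arrays and -0.19 to 0.30 on 2 HMBA arrays. Hoxa10 had 1 RA value (1.33, day 4) and 1 DMSO value (0.54, day 4), both in Cy3. Values of Hoxa7, Hoxa13, Hoxc12, Hoxd8, Hoxd9 and Hoxd13 lay between -0.41 and 0.64 wherever they were measured.

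In DMSO 2 of 21 Hox genes were called (1 higher and 1 lower, when 9.40% of all probes were higher and 7.62% lower, 17.0% in all) and in HMBA 3 of 21 (1 higher and 2 lower, when 13.4% of all probes were higher and 11.4% lower, 24.8% in all). Hoxc5 was higher in both. Its ratios in DMSO were 0.13 and 1.30, 0.91 and 2.16, and 1.12 and 1.67 on days 2, 4 and 6, the Cy3 array first, and the mean was 1.22 ± 0.26 (adjusted p = 0.0057). In HMBA they were 1.53 and 1.81, 1.72 and 2.42, and 1.38 and 2.00, with a mean of 1.81 ± 0.26 (adjusted p = 0.00022). All 18 Hoxc5 ratios of the series therefore lay above 0, the lowest on the DMSO day 2 Cy3 array. Hoxa6 was lower in both, at -0.58 ± 0.18 in DMSO (5 arrays from -1.03 to 0.07, adjusted p = 0.049) and -0.60 ± 0.16 in HMBA (6 arrays from -1.13 to -0.19, adjusted p = 0.016). Hoxa3 was lower in HMBA, with arrays from -0.82 to -0.17 and a mean of -0.49 ± 0.15 (adjusted p = 0.031), where in RA it was higher. The Hoxa6 call was lost in 4 of 5 fits that leave out 1 DMSO array and in 3 of 6 that leave out 1 HMBA array, and the Hoxa3 call in HMBA in 6 of 6. The median change of the 21 genes was 0.03 in both DMSO and HMBA, against 0.02 and -0.00060 over all probes. With the replicate block 8 genes were called in DMSO, 4 higher and 4 lower (41.1% of probes), and 7 in HMBA, 2 higher and 5 lower (47.9%). Among the lower genes were Hoxa5 (-0.28 and -0.27) and Hoxc6 (-0.31 and -0.36), a thoracic and forelimb gene, in both treatments. Hoxb4 (-0.45) was lower in HMBA.

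Set directly against each other, the treatments differed at few Hox genes. RA against DMSO gave 1 call of 21 (6.19% of all probes), Hoxd3, whose RA ratios of -1.52 to -0.45 did not overlap the DMSO ratios of -0.16 to 0.60, a difference of -1.11 ± 0.20 (adjusted p = 0.0054). RA against HMBA gave 2 calls (3.28% of all probes, 2.05% higher and 1.22% lower), Hoxa3 at 0.95 ± 0.21 (adjusted p = 0.029) and Hoxd3 at -0.86 ± 0.20 (adjusted p = 0.036). The Hoxa3 ratios in RA, 0.10 to 1.34, all lay above those in HMBA, -0.82 to -0.17, but 9 of the 12 fits without 1 array of either treatment lost the Hoxa3 call and 10 lost that of Hoxd3. Hoxa5 differed by 1.15 ± 0.33 between RA and DMSO (adjusted p = 0.068) and by 1.14 ± 0.33 between RA and HMBA (adjusted p = 0.11), and Hoxb5 by 0.57 ± 0.18 (adjusted p = 0.088) and 0.70 ± 0.18 (adjusted p = 0.053), none of them called. Hoxc5, called in each treatment, differed by 0.31 ± 0.37 between RA and DMSO and by -0.28 ± 0.37 between RA and HMBA. With the replicate block the RA against DMSO calls were 6 (22.7% of probes), Hoxa2, Hoxa3, Hoxa5, Hoxb5 and Hoxb7 higher in RA and Hoxd3 lower, and RA against HMBA gave the same 6 in the same directions plus Hoxb9 higher (16.5% of probes). DMSO against HMBA gave no call in limma's test (1.45% of all probes) and 1 with the block (9.67%), Hoxc5 at -0.59 (adjusted p = 0.012). No Hox gene had an unadjusted p under 0.05 in limma's test, and the share of all probes at that level was not counted. The treatments are compared through ratios against untreated cells, whose own spread does not enter as a separate group.

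By single days, with 2 arrays each, Hoxb5 (1.52 ± 0.22, adjusted p = 0.0012) and Hoxb7 (0.80 ± 0.17, adjusted p = 0.017) were called on day 2 of RA, when 6.23% of probes were. Hoxb7 (0.79 ± 0.17, adjusted p = 0.014) and Hoxc5 (1.72 ± 0.45, adjusted p = 0.030) were called on day 4 (9.26% of probes), and Hoxc5 (1.48 ± 0.45, adjusted p = 0.044) and Hoxd3 (-1.06 ± 0.25, adjusted p = 0.012) on day 6 (14.5% of probes). The Hoxb7 call on day 2 was lost without the Cy5 array (0.52). On day 4 neither call held without either array, and on day 6 neither held without the Cy5 array. In HMBA Hoxc5 alone was called, on day 4 (2.07 ± 0.45, 12.8% of probes) and day 6 (1.69 ± 0.45, 12.3% of probes), each lost without either array, and on day 2 none was (4.98% of probes). DMSO gave no Hox call on day 2, 4 or 6 (1.97%, 6.72% and 10.2% of probes), with 0, 2 and 3 genes at an unadjusted p under 0.05. The share of all probes at that unadjusted level was not counted. The replicate block gave 10, 8 and 7 Hox calls on days 2, 4 and 6 of RA (22.6%, 29.4% and 40.4% of probes), 1, 6 and 5 in DMSO (10.3%, 25.6% and 31.1%) and 1, 5 and 5 in HMBA (21.3%, 33.3% and 32.9%).

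The test of day 6 against day 2 itself gave no Hox call in RA (1.09% of all probes), DMSO (0.955%) or HMBA (1.48%). At an unadjusted p under 0.05 there were 2, 0 and 0 Hox genes, and the share of all probes at that level was not counted. The RA genes were Hoxb5, lower on day 6 by a log2 difference of -1.31 ± 0.31 (adjusted p = 0.071), and Hoxb7, at -0.63 ± 0.24 (adjusted p = 0.38). With the replicate block 2 were called in RA (10.6% of probes), Hoxb5 (adjusted p = 0.00069) and Hoxa2 (-0.92, adjusted p = 0.020), both lower on day 6, and none in DMSO (9.89%) or HMBA (1671 of 16644 probes).

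In the RNAi experiment, levels of the Hox probe sets were compared with all probe sets in vector. Vector means ran from 3.04 (Hoxd10) to 7.27 (Hoxa5) on the log2 scale of normalised probe set levels, with a median of 4.21 against 4.63 for all probe sets, and 20 of the 33 genes were below that median. Only Hoxa5 and Hoxa7 were above the upper quartile, 6.53, and the other Hoxa5 probe set averaged 3.27 in vector. Levels of different probe sets depend on the probes, so this order is not one of RNA amounts. The largest difference between any 2 group means of 1 gene was 0.75.

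**Figure D3:**
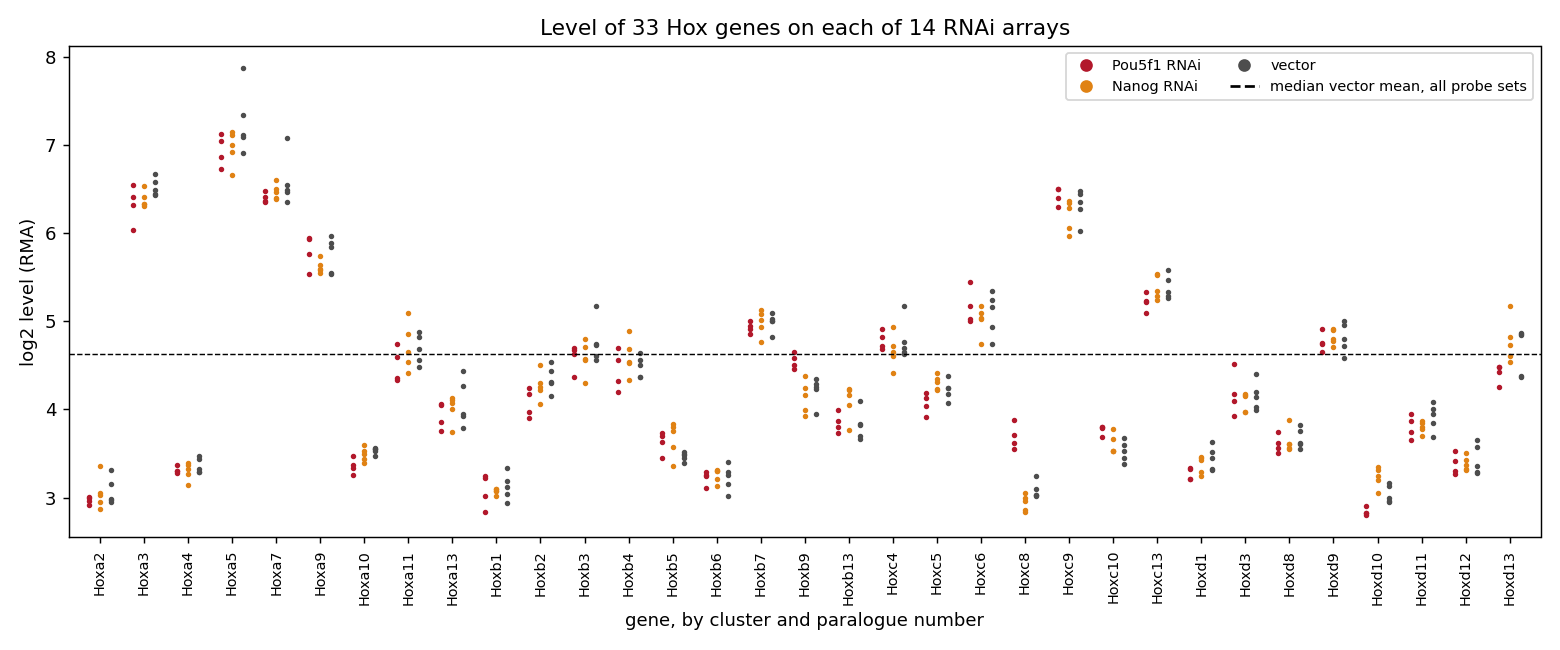
Normalised log2 level of the 33 Hox genes with a probe set of their own on each of the 14 RNAi arrays, by cluster and paralogue number; the dashed line is the median vector mean of all probe sets, 4.63. In vector 20 of the 33 genes have a mean below the line, and the Hoxc8 points of Pou5f1 RNAi lie above those of both other groups.

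Pou5f1 RNAi changed 4 of 33 Hox genes against vector, when 31.6% of all probe sets were called, 16.0% higher and 15.6% lower: Hoxc8, Hoxb9 and Hoxc10 were higher and Hoxb2 was lower. Hoxc8, a gene of the lower thorax and of brachial motor neurons, was at 3.71, 3.88, 3.55 and 3.62 in Pou5f1 RNAi, against 3.24, 3.09, 3.03, 3.02 and 3.02 in vector. The groups did not overlap, and the difference was 0.61 ± 0.08 (adjusted p = 4.4e-06), the single Hox change of 0.5 or more. Hoxb9, which patterns the ribs, was at 4.65, 4.58, 4.50 and 4.46 in Pou5f1 RNAi, against 3.95, 4.23, 4.25, 4.34 and 4.29 in vector, a difference of 0.34 ± 0.10 (adjusted p = 0.010). Hoxc10, a lumbar gene, was at 3.68, 3.79, 3.80 and 3.80, against 3.52, 3.68, 3.45, 3.59 and 3.38 in vector, a difference of 0.24 ± 0.08 (adjusted p = 0.024). The lowest Hoxc10 array of Pou5f1 RNAi was just above the highest of vector, and the call was lost without any 1 of 5 arrays, at 0.21 to 0.24. Hoxb2, a hindbrain gene, was at 4.24, 3.97, 3.90 and 4.17 in Pou5f1 RNAi, against 4.54, 4.31, 4.43, 4.30 and 4.16 in vector. These overlapped, the difference was -0.27 ± 0.10 (adjusted p = 0.039), and it lost its call without any 1 of 4 arrays. Hoxc8, Hoxb9 and Hoxc10 are all below the median level of the platform, and among the 13 Hox genes at or above the median mean level none was called. In vector Hoxc8 was at percentile 6.5 of all probe sets, near the floor, Hoxc10 at 20.1 and Hoxb9 at 40.9.

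**Figure D4:**
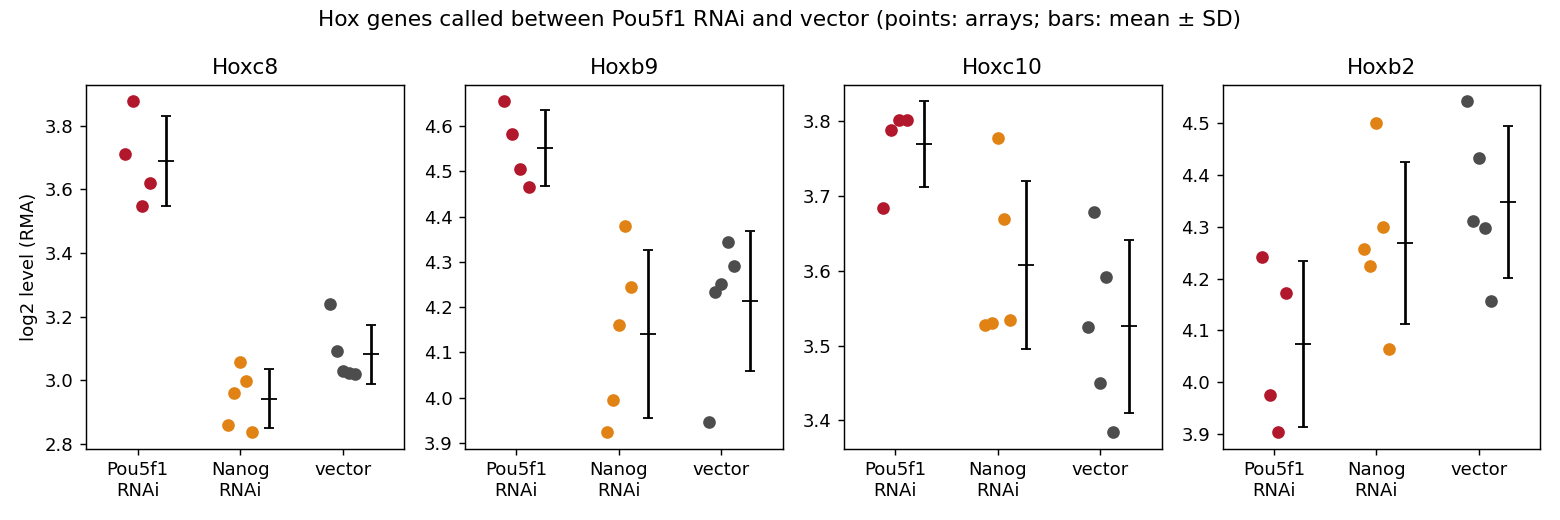
Normalised log2 level on each array of the 4 Hox genes called between Pou5f1 RNAi and vector, with the mean and SD of each group beside the points. Hoxc8, Hoxb9 and Hoxc10 do not overlap between Pou5f1 RNAi and vector, and Hoxb2 does. The axes differ between genes and do not start at 0.

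The median change of the 33 genes in Pou5f1 RNAi was -0.06, against -0.04 over all probe sets, and by cluster no HoxA or HoxD gene was called, 2 of 9 HoxB genes and 2 of 7 HoxC genes. The most negative change was that of Hoxa5, -0.33, which was not called. Hoxd10, a gene of lumbar motor neurons, was at 2.83, 2.82, 2.81 and 2.90 in Pou5f1 RNAi, against 2.96, 3.13, 3.16, 2.99 and 2.95 in vector, without overlap but not called (-0.20 ± 0.08, adjusted p = 0.056). The 2 probe sets shared by Hoxd4 and Hoxd3 and the 1 shared by Hoxb8 and Hoxb7 were not called in any RNAi comparison.

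Nanog RNAi gave no Hox call against vector (0 of 33) when 15.6% of all probe sets were called by limma. Changes ran from -0.30 (Hoxa5) to 0.26 (Hoxb13), and every gene's Nanog RNAi arrays overlapped those of vector. In the same test 4 genes had an unadjusted p under 0.05 (Hoxb5, Hoxd10, Hoxb13 and Hoxa5). Neither the share of all probe sets at that level nor the share without overlap was counted. Pou5f1 RNAi against Nanog RNAi gave 5 calls of 33, 2 higher and 3 lower (29.5% of all probe sets, 15.0% higher and 14.5% lower). Hoxc8, at 2.86, 2.96, 3.06, 3.00 and 2.84 in Nanog RNAi, was higher in Pou5f1 RNAi by 0.75 ± 0.08 (adjusted p = 3.1e-07), and Hoxb9, at 3.92, 3.99, 4.16, 4.38 and 4.25 in Nanog RNAi, by 0.41 ± 0.10 (adjusted p = 0.0024). Hoxd10 was lower by -0.39 ± 0.08 (adjusted p = 0.00041), with 3.31, 3.24, 3.20, 3.05 and 3.35 in Nanog RNAi. Its vector level was near the floor, at percentile 5.4 of all probe sets. Hoxd13, a gene of the digits, was lower by -0.36 ± 0.13 (adjusted p = 0.039) and Hoxc5 by -0.24 ± 0.08 (adjusted p = 0.029). The Hoxd13 and Hoxc5 calls were lost in 7 and 5 of the 9 fits without 1 array. The other Hoxd13 probe set averaged 3.82 in Pou5f1 RNAi and 3.97 in Nanog RNAi, with overlap between the arrays. The 2 other Hoxc5 probe sets were not called and disagreed in direction, at -0.16 and 0.08, and the mean of its 3 probe sets gave -0.11 (adjusted p = 0.18), while a trended robust fit gave an adjusted p of 0.056. All 5 genes were separate between Pou5f1 RNAi and Nanog RNAi arrays. They were picked by the test of these same arrays, and the share of all probe sets so separated was not counted. The 2 knockdowns share the vector arrays in the comparisons above, and these 5 values come from the direct comparison.

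The experiments cannot be joined on 1 scale, but the genes can be set side by side. Of the 8 genes called in RA, Hoxa6 and Hoxd4 had no own probe set on the RNAi arrays, and the other 6 were called in neither knockdown against vector. Hoxb9 and Hoxc10, higher in Pou5f1 RNAi, had RA means of 0.22 ± 0.38 and 0.08 ± 0.14 and were not called, and Hoxc8 and Hoxb2 had no probe on the 2-colour arrays.

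Genes that act with or upstream of Hox genes were counted from lists of known members. Of the TALE partners, 3 of 5 tested were higher in RA, when 14.6% of all probes were, and none lower: Meis1 rose by 1.44 ± 0.14 (adjusted p = 9.4e-06), Pbx2 by 1.02 ± 0.10 (adjusted p = 1.5e-05) and Meis3 by 0.69 ± 0.10 (adjusted p = 0.00035). The same 3 were higher in DMSO (Meis1 1.19, Meis3 0.72, Pbx2 0.55), when 9.40% of all probes were, and Pknox1 was lower (-0.41), when 7.62% were. These 3 were also higher in HMBA (Meis1 1.73, Meis3 0.93, Pbx2 0.67), when 13.4% of all probes were. In Pou5f1 RNAi 3 of 8 were called, Pbx2 (0.69) and Meis3 (0.32) higher and Pbx3 (-0.53) lower, and in Nanog RNAi 1 of 8, Meis2 (0.63), was higher, shares near the 31.6% and 15.6% of all probe sets called. Of 8 Cdx, ParaHox and Evx genes, Cdx2, an activator of central Hox genes and a trophectoderm factor, alone was called, higher by 2.34 ± 0.11 (adjusted p = 8.3e-13) in Pou5f1 RNAi and by 0.60 ± 0.11 (adjusted p = 0.00035) in Nanog RNAi. None of the 3 tested on the 2-colour arrays was called in RA, DMSO or HMBA.

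Of 11 tested retinoid pathway genes 5 were higher and 1 lower in RA, when 14.6% of all probes were higher and 10.5% lower. Crabp1, which binds retinoic acid in the cytoplasm, rose by 2.69 ± 0.09 (adjusted p = 1.8e-09), Stra8, a retinoid target, by 2.56 ± 0.16 (adjusted p = 2.2e-07), Crabp2 by 2.55 ± 0.15 (adjusted p = 3.0e-07) and Rxra, a receptor, by 1.70 ± 0.18 (adjusted p = 8.3e-05). In DMSO and HMBA 3 and 4 were higher and 1 lower in each, with Crabp2 at 1.31 and 1.80 and the receptor gene Rarg at -0.96 and -1.23. Of all probes, 9.40% were higher and 7.62% lower in DMSO, and 13.4% and 11.4% in HMBA. Crabp1 and Stra8 were higher in RA than in DMSO by 2.65 and 2.95 and than in HMBA by 2.31 and 2.71. In Pou5f1 RNAi 1 of 14 was higher, Stra8 (1.82), and 5 were lower, among them Rarg (-2.18) and Crabp1 (-1.39), when 16.0% of all probe sets were higher and 15.6% lower. Polycomb and trithorax genes, which hold Hox clusters silent or active, went both ways: 4 of 21 higher and 5 lower in RA (25.1% of all probes called), with Bmi1 at 1.16 and Jarid2 at -1.18, and 9 of 24 higher and 8 lower in Pou5f1 RNAi (31.6% of all probe sets called), with Phc1 at -2.51 and Phc2 at 1.58. Of the 4 hindbrain and boundary genes tested, Otx2, a forebrain and midbrain factor, was lower in RA (-2.33), DMSO (-0.53) and HMBA (-2.08) and in Pou5f1 RNAi (-4.47), and Gbx2, its hindbrain counterpart, was lower in the same comparisons (-0.90, -1.67, -1.97 and -3.37). Fgf8, a signal of the midbrain boundary, was higher in RA (0.60) and DMSO (1.17), and Egr2, a hindbrain factor, in HMBA (0.43). In Nanog RNAi Gbx2 was higher (1.03) and Otx2 lower (-0.56).

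Cell type markers changed in every treatment and knockdown, also where few or no Hox genes were called. ES cell markers were lower for 9 of 10 genes in RA (median -1.80), 10 of 10 in DMSO (-2.45) and 10 of 10 in HMBA (-2.29). Fibroblast markers were higher for 7 of 10 genes in RA, for 4 in DMSO, where 1 was lower, and for 5 in HMBA. Of all probes, 14.6% were higher and 10.5% lower in RA. These shares were 9.40% and 7.62% in DMSO, and 13.4% and 11.4% in HMBA. The summed ratio of the 5 fibroblast markers with complete values was 6.19 to 10.9 on RA arrays. It was 0.45 to 2.29 on DMSO arrays and 0.53 to 4.96 on HMBA arrays. Of 8 primitive endoderm markers 5 were higher and 1 lower in RA, 2 were higher in DMSO and 3 higher in HMBA. Of 10 trophectoderm markers 5 were higher in RA, 2 higher and 1 lower in DMSO, and 4 higher and 1 lower in HMBA. Of 7 neural markers 1 was higher and 3 lower in RA, and 1 went each way in DMSO and in HMBA. Of 5 mesoderm markers 2 went each way in RA, and 1 each way in DMSO and in HMBA. In Pou5f1 RNAi all 12 trophectoderm markers were higher, with summed levels of 107 to 109, against 77.0 to 81.6 in Nanog RNAi and 66.6 to 67.6 in vector, and all 10 ES cell markers were lower. In Nanog RNAi, with no Hox call, 10 of 12 trophectoderm markers were higher and 8 of 10 ES cell markers lower. Primitive endoderm markers were higher for 5 of 10 genes and lower for 0 in Nanog RNAi. In Pou5f1 RNAi 3 of these 10 were higher and 5 lower. Of all probe sets, 31.6% were called in Pou5f1 RNAi and 15.6% in Nanog RNAi. The ES cell markers, summed over 10 genes, were at 87.5 to 90.0 in Pou5f1 RNAi and 101.6 to 102.3 in Nanog RNAi, against 108.7 to 109.6 in vector. The part of these cell types in the Hox changes was not tested.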

How the data were processed

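RNA was measured on 14 Affymetrix mouse genome arrays of the RNAi groups and on 18 arrays of 2 colours of the treatment groups. The RNAi values are deposited as log2 levels made by the authors with RMA, per the submitters' processing notes. The ratio values are deposited as log ratios of treated over untreated cells, with the direction of dye-swapped arrays already turned, per the labels. No source used here names the base of these logs, which were taken as log2, or the filter that left some probes without a value. Depth does not apply to arrays, and their number limits the precision.

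Each platform was fitted once across all features with limma 3.58.1 (R 4.3.3), with 1 mean per group, and Benjamini-Hochberg adjusted p under 0.05 was the call: 45037 probe sets after 64 control probe sets were left out, and 16657 probes with a value in each of the 9 treatment and day groups. A treatment's mean of days and the differences between treatments were contrasts of those means. For a gene with several probe sets the one of highest mean over the 14 arrays was used, and for the ratio arrays the probe with values on most arrays; probes with several gene names were given to no gene. No deposited column was left unused (0 columns). Hox genes called in a knockdown with a change of 0.5 or more, or in a treatment's mean of days, were to be named with their arrays; the other called genes of the RNAi comparisons, and the genes outside the test, were added after their values were seen. The members and gene lists were chosen with earlier results of these data known.

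Same-numbered ratio arrays share a dye orientation, per the labels: all 72 pairs of same-numbered arrays of different groups had correlated deviations (0.51 to 0.92), and each of the 18 arrays was closest to arrays of its own number. The orientation was therefore also fitted as a replicate block. The replicate numbers paired the RNAi arrays less clearly. Only 5 of 13 such pairs were above 0.1 (-0.25 to 0.44), but 9 of the 14 arrays were closest to an array of their own number. Other alternatives were quantile normalization, a common spread per array, filters on dim or missing probes, robust fits, the mean of a gene's probes, and leaving out each array or day. The fit was tested on simulated data. Promoter sequences are RefSeq's for GRCm38.p6.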

Additional observations from a re-analysis of the deposited data

Results flagged for a closer look

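Among 99 groups of 4 or 5 RNAi arrays, 33 genes in 3 groups, 5 held an array that stood apart from the rest, about the 1 in 20 that chance gives. Hoxc4 was highest on vector replicate 2, at 5.17 with the next array at 4.76, and Hoxd8 was highest on Nanog RNAi replicate 2, at 3.88 with the next at 3.61. Hoxa7 was highest on vector replicate 1, at 7.08 with the next at 6.54, and Hoxb9 was lowest on the same array, at 3.95 with the next at 4.23. Hoxc10 was lowest on Pou5f1 RNAi replicate 1, at 3.68 with the next at 3.79. Without vector replicate 1 the Hoxb9 difference between Pou5f1 RNAi and vector, 0.34, was 0.27 and was still called.

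Between treatments, 3 Hox differences passed limma's adjusted p of 0.05: Hoxd3 in RA against DMSO (-1.11), Hoxa3 in RA against HMBA (0.95) and Hoxd3 in RA against HMBA (-0.86). Between the knockdowns, 5 did, in Pou5f1 RNAi against Nanog RNAi: Hoxc8 (0.75), Hoxb9 (0.41), Hoxd10 (-0.39), Hoxd13 (-0.36) and Hoxc5 (-0.24).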

How the results depend on the processing

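Of 33 calls of 1 Hox gene in 1 comparison, 10 held under every alternative in which the gene was tested, and no change was reversed. Among these 10, the filter on dim probe sets left out Hoxc8, Hoxb9 and Hoxd10. The filter on missing values left out Hoxb7 in RA. Fits without 1 array kept a call in 139 cases and lost it in 71, and other alternatives kept it in 239 and lost it in 38. Low levels near the floor of the platform limit the RNAi values. The ratios are limited by 2 arrays a day with opposite dyes.

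The replicate block (the dye orientation) moved the counts of Hox calls on the ratio arrays to 8 from 2 in DMSO and 7 from 3 in HMBA for the mean of days, to 10, 8 and 7 from 2 each on days 2, 4 and 6 of RA, to 1, 6 and 5 from 0 each in DMSO, to 1, 5 and 5 from 0, 1 and 1 in HMBA, to 6 from 1 for RA against DMSO, to 7 from 2 for RA against HMBA, to 1 from 0 for DMSO against HMBA, and to 2 from 0 for RA day 6 against day 2. For RA over the 3 days it gave 12 against 8, and it left both counts of day 6 against day 2 in DMSO and HMBA at 0. On the RNAi arrays, which the numbers paired less clearly, the block gave 8 calls in Pou5f1 RNAi against 4 without it, and 2 in Nanog RNAi against 0.

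Fits of 1 dye orientation alone, with days as replicates, were chosen after seeing the data, as were those without 1 day. In a fit of 1 orientation, effects of the dye and of the treatment cannot be told apart. Hoxb9, for example, averaged 1.03 on the RA arrays in Cy3 and -0.60 on those in Cy5. Counts over all features from some of these fits are given at the end of this section. Cy3 arrays alone gave 14 Hox calls in RA, 6 in DMSO, 6 in HMBA, 2 for RA against DMSO and 0 for RA against HMBA, and Cy5 arrays alone 7 in DMSO, 8 in HMBA and 3 for RA against DMSO. All arrays with days as replicates gave 3 for RA against DMSO. Without day 2 there were 5 calls in RA, 1 in DMSO and 0 for RA against HMBA. Without day 4 there were 0 in DMSO, 1 in HMBA, 0 for RA against DMSO and 0 for RA against HMBA. Without day 6 there were 5 in RA, 0 in DMSO, 1 in HMBA and 0 for RA against HMBA. Probes with a value on all arrays, which are fewer, gave 5 calls in RA, 1 in DMSO, 1 in HMBA and 1 each on days 2 and 4 of RA. With no filter on missing values there was 1 in DMSO, and a robust fit also gave 1 in DMSO. The fit with no filter gave 5 on day 2 of RA. These take in the sparse genes Hoxa4, Hoxb3 and Hoxc4, for which no test is given above. That count is therefore no result for them, and the share of all probes called in that fit is not given here. Scaling arrays to 1 spread gave 1 each on day 6 of DMSO, day 2 of HMBA, day 6 of RA and for RA against HMBA, and the mean of a gene's probes gave 1 on day 2 of HMBA.

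In Nanog RNAi the mean of a gene's probe sets gave 2 calls, and a trended robust fit and quantile normalization gave 1 each. Probe sets at or above the median level gave 0 in Pou5f1 RNAi and 1 for Pou5f1 RNAi against Nanog RNAi. Without 1 array the counts ran from 2 to 5 in Pou5f1 RNAi, 0 to 1 in Nanog RNAi, 3 to 5 between the knockdowns, 6 to 8 in RA, 1 to 2 in DMSO, 1 to 2 in HMBA, 1 to 3 for RA against DMSO and 0 to 2 for RA against HMBA. They ran from 2 to 3 on day 2, 0 to 0 on day 4 and 0 to 2 on day 6 of RA, and were 0 on days 4 and 6 of HMBA.

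Over all features, the replicate block gave 8204 calls in RA, 6838 in DMSO and 7964 in HMBA, against 4182, 2834 and 4137 without it. It gave 3783 calls for RA against DMSO, 2742 for RA against HMBA and 1609 for DMSO against HMBA, against 1031, 546 and 242. Cy3 arrays alone gave 6808 in RA and 4313 in DMSO, and Cy5 arrays alone 6336 in RA, 5830 in DMSO and 6468 in HMBA. Without day 6 the counts were 1969 in RA, 948 in DMSO and 2071 in HMBA. The mean of a gene's probe sets, over 18193 genes rather than 45037 probe sets, gave 7674 calls in Pou5f1 RNAi and 4138 in Nanog RNAi, against 14240 and 7017.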

Other observations

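The 3 named genes on either side of each Hox cluster were read in the same fits, a set chosen after seeing the data. In Pou5f1 RNAi against vector, 2 of 22 measured neighbours were higher and 6 lower, and in Nanog RNAi 1 of 22 was higher and 3 lower, when 31.6% and 15.6% of all probe sets were called. In RA 2 of 16 were higher and 2 lower, in DMSO 0 and 4, and in HMBA 0 and 5, when 25.1%, 17.0% and 24.8% of all probes were called. These counts are near the shares over all features. Calcoco2, an autophagy receptor gene beside HoxB, was higher in Pou5f1 RNAi (0.38), in Nanog RNAi (1.63) and in RA (0.98), and lower in DMSO (-1.60) and HMBA (-0.27). Snx10, a sorting nexin gene beside HoxA, was lower in Pou5f1 RNAi (-0.57), Nanog RNAi (-0.84), DMSO (-0.91) and HMBA (-0.96). In RA Snx10 was at -0.60 and was not called in limma's test (adjusted p = 0.069).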
